A study of Homo sapiens with 8 samples.

Results

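The miR-371 to miR-373 cluster is a group of small hairpin genes on chromosome 19, and 6 of its mature miRNAs, hsa-miR-371a-5p, hsa-miR-371a-3p, hsa-miR-371b-5p, hsa-miR-371b-3p, hsa-miR-372-3p and hsa-miR-373-3p, are described here (hsa stands for human and is left out below). They were taken by name from the 1780 miRNAs counted in the series. They were chosen by their counts in each cell line and by the difference between the DLD1 cultures, so both are given as descriptions with no test. Small RNA was sequenced to compare the miRNAs of colorectal adenocarcinoma cells grown as a flat layer with those of cells grown as spheroids. DLD1 and HT29, 2 established human cell lines, were each cultivated for 6 days as a monolayer on plastic (2D) or as multicellular spheroids (MCS) in round-bottom wells coated with agarose. There was no other treatment, and each of the 4 groups had 2 libraries labelled as biological replicates. For DLD1, 35000 cells were plated per flask in 2D and 7000 per well in MCS. For HT29 these numbers were 100000 and 3500, so the number plated and the vessel differ with the culture. DLD1 was grown in RPMI and HT29 in DMEM, and the small RNA kit was V3 for DLD1 and V2 for HT29, so that cell line, medium and kit cannot be told apart. A library held between 10495634 and 26211524 miRNA counts.

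A miRNA gene is transcribed as part of a longer RNA that folds into a hairpin, and Drosha and Dicer cut out a short duplex whose 5p or 3p arm is loaded into an Argonaute protein. The loaded arm finds target mRNAs by pairing through its seed, the bases just after its 5′ end, and lowers their translation and stability. The miR-371 to miR-373 cluster is known from embryonic stem cells and germ cell tumours, where its miRNAs are abundant, and miR-372 and miR-373 were described as oncogenes that let germ cells divide in spite of p53 signalling by lowering LATS2. Several of its arms carry the AAGUGC motif that is also found in the miR-302 family of pluripotent cells, in the placental miRNA cluster C19MC and in the miR-17 family of dividing cells.

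The sequences of the members show which of them could share targets. They are given here 5′ to 3′ from the RefSeq table, with the seed, bases 2 to 8, in capitals.
miR-371b-3p: aAGUGCCCccacaguuugagugc
miR-371a-3p: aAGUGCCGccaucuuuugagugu
miR-372-3p: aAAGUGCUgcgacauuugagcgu
miR-373-3p: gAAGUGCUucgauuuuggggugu
miR-371a-5p: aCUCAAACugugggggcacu
miR-371b-5p: aCUCAAAAgauggcggcacuuu
All 4 of the 3p members hold AAGUGC within their first 8 bases, and the motif begins at the first base in both miR-371 3p arms. The seed AAGUGCU of miR-372-3p and miR-373-3p was the same, and each of them shared it with 11 other mature miRNAs of the table, among them miR-302a-3p and miR-520a-3p. The seeds of miR-371b-3p, miR-371a-3p and miR-371a-5p were found in no other mature miRNA of the table. The 5p members hold CUCAAA in place of AAGUGC, and miR-371b-5p shares its seed with miR-373-5p and miR-616-5p.

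The cluster spans 1099 bases of chromosome 19 in GRCh37, from the start of MIR371A to the end of MIR373. MIR371A (chr19:54290929-54290995), MIR372 (chr19:54291144-54291210) and MIR373 (chr19:54291959-54292027) lie on the plus strand. MIR371B (chr19:54290931-54290996) lies on the minus strand and shares 65 bases with MIR371A. The pair is printed from RefSeq with the mature arms in capitals, because the arms of one hairpin are near complements of the arms of the other.
MIR371A: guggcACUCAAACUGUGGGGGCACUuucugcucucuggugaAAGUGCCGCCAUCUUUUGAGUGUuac
MIR371B: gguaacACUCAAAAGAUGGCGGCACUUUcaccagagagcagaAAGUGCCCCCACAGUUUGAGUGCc
The arms miR-371b-3p and miR-371a-5p are reverse complements over 20 bases, and miR-371a-3p and miR-371b-5p over 21 bases. Whether the authors counted reads by strand is not given in the sources used here, so reads of a plus-strand arm and of its minus-strand partner could have been assigned to each other, and this was not tested. Among the 8 mature arms of the cluster, the longest run shared in the same orientation was 8 bases. With miRNAs outside the cluster, among the 2370 mature miRNAs of the RefSeq table, it was 11 bases in the same orientation. Both are shorter than the 15 bases of the shortest reads kept. Runs shared with outside miRNAs in the opposite orientation, or with counted miRNAs that the RefSeq table lacks, were not examined. In GENCODE, MIR371A, MIR371B and MIR372 lie in an exon of a minus-strand lncRNA (ENSG00000269877) and in an intron of a plus-strand lncRNA (ENSG00000269564), and MIR373 lies in an exon of the latter. The last C19MC hairpin ends 26452 bases before MIR371A on the chromosome.

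**Figure D1:**
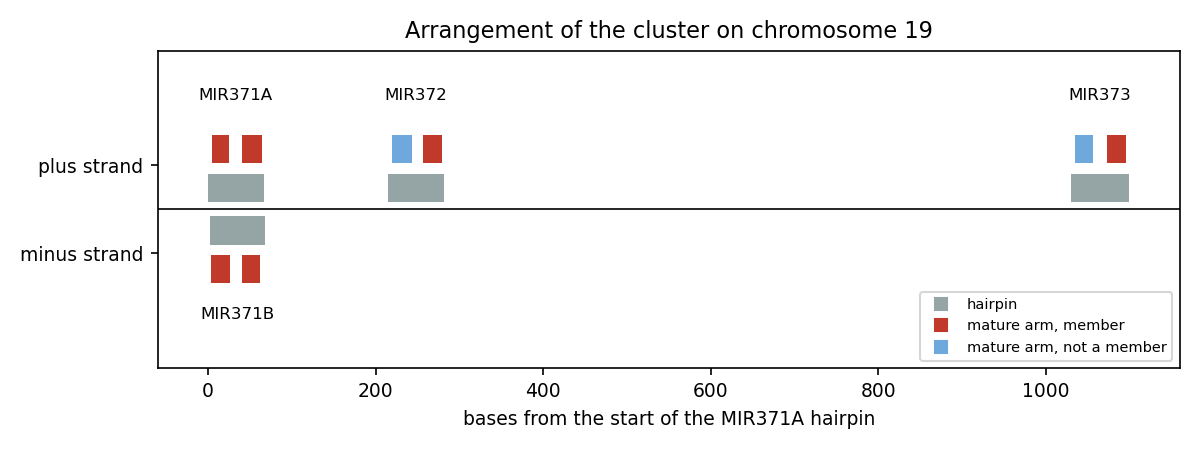
Hairpins (grey) and mature arms (red for the 6 members, blue for miR-372-5p and miR-373-5p) of the cluster, drawn to scale in bases from the start of MIR371A, with the plus strand above the line and the minus strand below it. MIR371B faces MIR371A over 65 bases, and 748 bases separate MIR372 from MIR373.

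All 6 members were counted in every DLD1 library, and miR-371b-3p and miR-372-3p made up most of their reads. Both MCS libraries lay below both 2D libraries for each of the 6, whereas 19% of the 1492 miRNAs counted in DLD1, and 25.4% of the 346 tested, had that order. The rule used this contrast, so nothing is read from the count. Unless stated, levels of the members in DLD1 are given as normalized CPM. These are CPM, counts scaled to a common library size, after correction with upper quartile factors. Means are given ± SD over the 2 libraries of a culture. Levels in HT29 and those of other miRNAs are CPM of the library total. In bulk RNA, fewer cells that express a miRNA and less of it per cell cannot be told apart.

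MiR-371b-3p, the 3p arm of the minus-strand hairpin, was the most abundant member. It had 3743 counts in replicate 1 and 7967 in replicate 2 of 2D, against 495 and 585 in MCS. The normalized levels were 213 and 268 CPM in 2D and 26.5 and 38.3 CPM in MCS. The lower 2D library therefore stood well above the higher MCS library, and the means were 241 ± 38.5 and 32.4 ± 8.40 CPM (SD, n = 2). By rank it was the 125th most abundant of 1083 miRNAs counted in replicate 1 of 2D and the 264th of 1089 in replicate 1 of MCS. The fitted log2 fold change, MCS against 2D, was -2.89 with a standard error of 0.27.

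MiR-372-3p, whose target LATS2 is a kinase of the Hippo pathway, had 2240 and 3470 counts in 2D and 464 and 572 in MCS. This gave 128 and 117 normalized CPM in 2D and 24.8 and 37.5 in MCS, and the groups did not overlap. The fitted log2 fold change was -1.97 (SE 0.28). The 2D libraries were closer to each other in miR-372-3p than in miR-371b-3p, and in both miRNAs replicate 2 of MCS was the higher of the MCS libraries after scaling.

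MiR-371a-5p, the 5p arm of the plus-strand hairpin, had 462 and 864 counts in 2D and 87 and 119 in MCS. Its levels of 26.3 and 29.1 normalized CPM in 2D stood against 4.65 and 7.80 in MCS, with a fitted log2 fold change of -2.16 (SE 0.36). MiR-373-3p, which has the seed of miR-372-3p, had 360 and 495 counts in 2D and 152 and 69 in MCS. Its levels were 20.5 and 16.6 normalized CPM in 2D and 8.12 and 4.52 in MCS, so that its MCS libraries differed more from each other than those of miR-372-3p. The fitted log2 fold change of miR-373-3p was -1.55 (SE 0.36). It depended on replicate 1 of MCS, and without that library it was -2.20, whereas without replicate 2 of MCS it was -1.25.

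The 2 remaining members did not reach the mean of 10 CPM that the fit required, so their fold changes come from the fit with no filter. MiR-371a-3p had 153 and 277 counts in 2D and 70 and 36 in MCS, or 8.72 and 9.31 against 3.74 and 2.36 normalized CPM. Its fitted log2 fold change was -1.56 (SE 0.46). MiR-371b-5p, the scarce arm of the minus-strand hairpin, had 6 and 12 counts in 2D and 3 and 4 in MCS. With so few counts its log2 fold change of -0.81 had a standard error of 2.53, and a difference was not detectable at this depth.

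**Figure D2:**
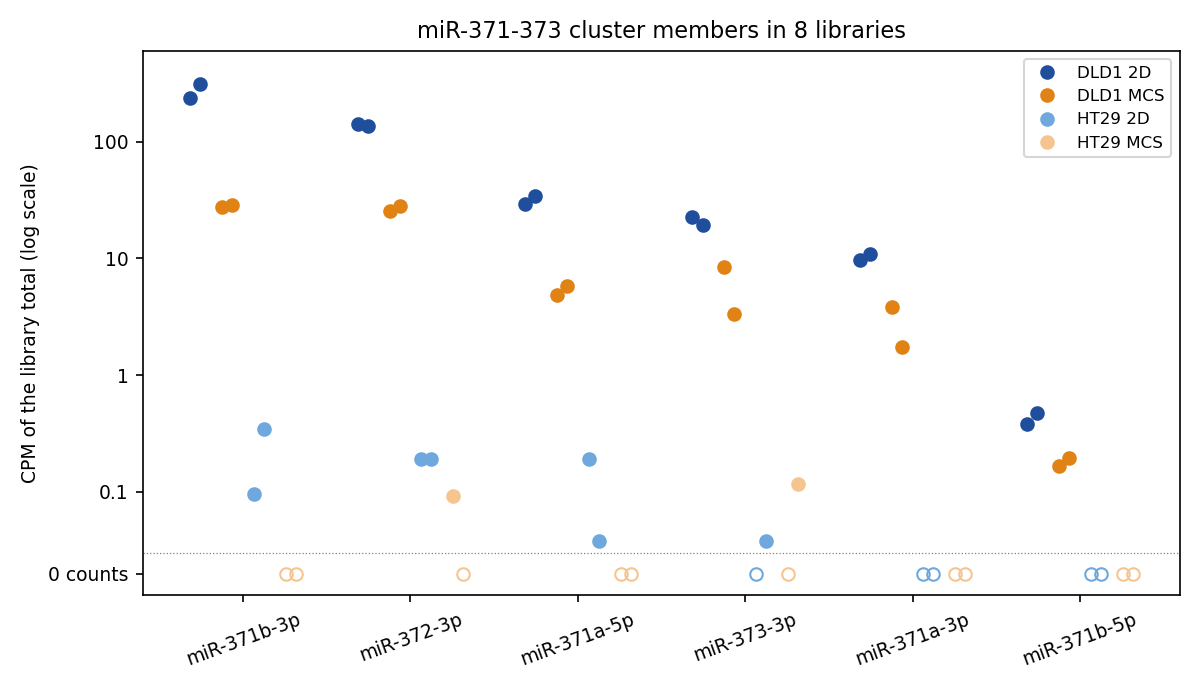
CPM of the library total (log axis) for each member in the 8 libraries, 1 point per library and 2 per group, with open circles at the bottom for libraries with 0 counts. For each member the DLD1 2D points lie above the DLD1 MCS points, and both lie above the HT29 points of that member, none of which exceeds 9 counts.

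Among the 346 miRNAs tested in DLD1, 11.6% were down-regulated in MCS and 29.8% were up-regulated, with a fold change of at least 1.5 and an adjusted p under 0.05 in the quasi-likelihood test of edgeR, adjusted by Benjamini-Hochberg. The median log2 fold change of the tested miRNAs was 0.23. Counted from the lowest log2 fold change, miR-371b-3p ranked 3, miR-371a-5p 6, miR-372-3p 8 and miR-373-3p 14 of the 346. The members were chosen on this contrast, so nothing is read from these ranks. MiR-371a-5p, with mean CPM of the library total of 31.6 in 2D and 5.31 in MCS, passed the 10 CPM limit only through 2D. The same held for miR-373-3p, with 21.1 and 5.89. The member nearest above the 10 CPM limit was miR-373-3p and the nearest below it was miR-371a-3p. The scaling moved all miRNAs together, and with TMM factors, DESeq2's size factors or library totals the log2 fold changes of DLD1 shifted by a median of -0.21, -0.12 and -0.37. With library totals the tested miRNAs split into 60 up-regulated and 83 down-regulated, against 103 and 40 with upper quartile factors. The 4 tested members were lower in MCS under each of these scalings.

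**Figure D3:**
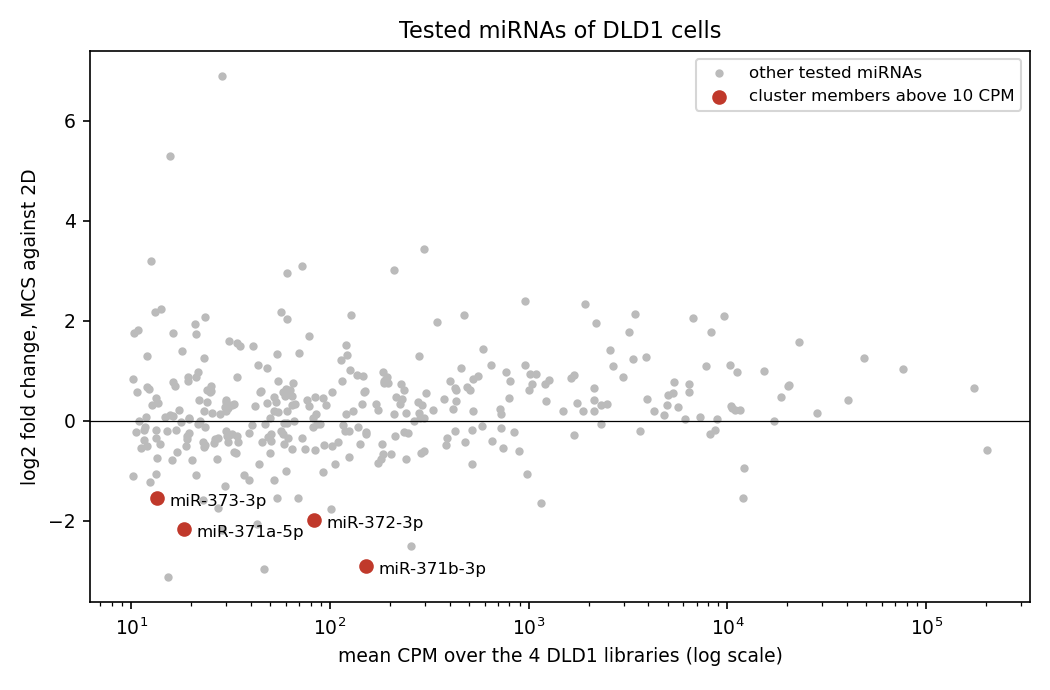
Fitted log2 fold change of MCS against 2D in DLD1 plotted against the mean CPM of the 4 libraries (log axis) for the 346 tested miRNAs (grey), with the 4 members that passed the filter in red. The members lie between -1.55 and -2.89, and the median of the tested miRNAs is 0.23.

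Summed, the 6 members stood at 440 and 514 CPM of the library total in DLD1 2D and at 70.3 and 67.7 in DLD1 MCS. After scaling, the sum averaged 419 ± 30.3 CPM for 2D and 79.3 ± 16.1 CPM for MCS (SD, n = 2), 5.28-fold lower in MCS. On the log2 scale the ratio of MCS to 2D was -2.40. The replicate SDs of the 2 cultures, combined as for a difference between 2 single libraries, gave 0.31. With library totals alone it was -2.79.

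Each hairpin was lower in MCS when its 2 arms were added up, with miR-372-5p and miR-373-5p included. MIR371B averaged 241 ± 38.6 normalized CPM for 2D against 32.6 ± 8.47 for MCS (SD, n = 2), a ratio of 7.39. MIR371A, on the opposite strand at the same position, stood at 36.7 ± 2.33 and 9.27 ± 1.25, a ratio of 3.96. MIR372 gave the same ratio of 3.96, and MIR373, the last hairpin of the plus strand, gave 3.16. Taking the closest and the most distant pair of libraries, the ratio ranged from 5.54 to 10.1 for MIR371B, from 3.45 to 4.57 for MIR371A, from 3.20 to 5.08 for MIR372 and from 2.26 to 4.73 for MIR373. The ranges of the 3 plus-strand hairpins overlapped each other, and that of MIR371B did not overlap those of the plus-strand hairpins. Reads of MIR371A and MIR371B could have been assigned to each other, so whether the strands differ was not tested. The ranges rest on 2 libraries per culture, and the members were chosen on this contrast.

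The make-up of the cluster also differed between the cultures, and this does not depend on how libraries are scaled. MiR-371b-3p took 53.7% (95% Wilson interval 52.6 to 54.9) and 60.9% (60.0 to 61.7) of the member counts in 2D. In MCS it took 38.9% (36.3 to 41.7) and 42.2% (39.7 to 44.9). The mean share was 57.3% ± 5.05 for 2D against 40.6% ± 2.33 for MCS (SD, n = 2), and the groups did not overlap. The counts of miR-371b-3p could hold reads of its antisense partner miR-371a-5p, and this was not tested. The intervals cover counting error within 1 library only, and not the difference between replicates. Reads copied from the same molecule cannot be recognised, so the intervals may be too narrow even for counting error. MiR-372-3p had a share of 29.3% ± 3.99 for 2D against 38.9% ± 3.39 for MCS (SD, n = 2). In 2D, miR-371b-3p therefore had 1.67 and 2.30 times the counts of miR-372-3p, and in MCS 1.07 and 1.02 times. MiR-373-3p took 4.48% ± 0.980 and 8.47% ± 4.93, where the SD in MCS is larger than the difference. MiR-371a-5p took 6.62% ± 0.0220 and 7.72% ± 1.24, which differ by less than the SD in MCS.

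**Figure D4:**
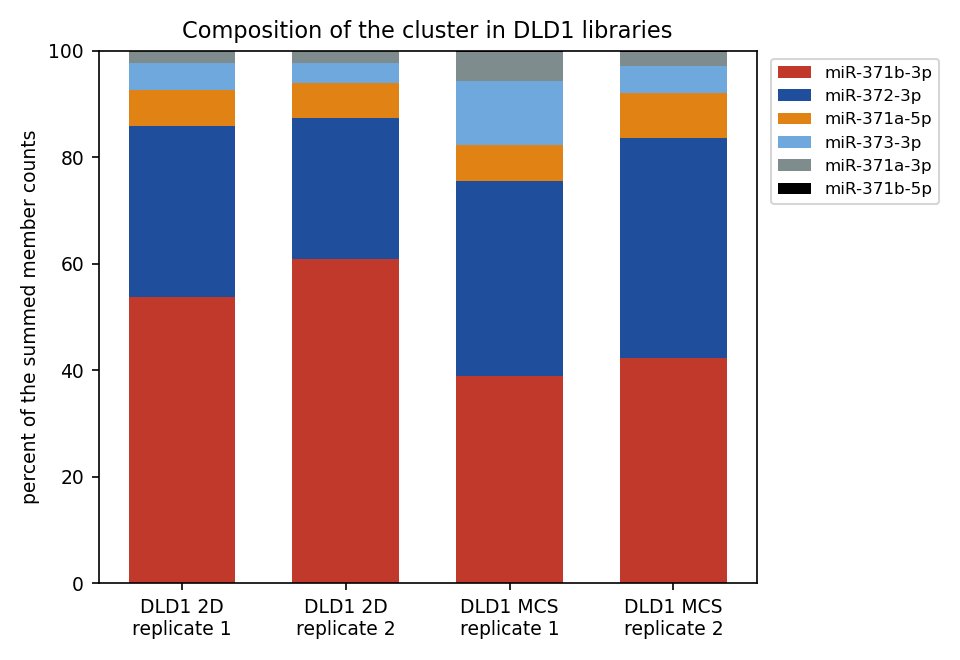
Share of each member, in percent of the summed counts of the 6 members, for the 4 DLD1 libraries, 1 stacked bar per library. The miR-371b-3p segment covers 53.7% and 60.9% in 2D and 38.9% and 42.2% in MCS, and the miR-371b-5p segment is too thin to be seen.

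The 2 arms of a hairpin come from the same precursor, and their counts are compared here. In MIR371A and MIR371B an arm could hold reads of its antisense partner, so these ratios need not show which arm is kept. The 3p arm of MIR371B outnumbered its 5p arm 624 and 664 times in 2D and 165 and 146 times in MCS. The ratios in MCS rest on 3 and 4 counts of miR-371b-5p. MIR371A leaned the other way, with 3.02 and 3.12 times as many 5p as 3p counts in 2D and 1.24 and 3.31 times in MCS. The arm miR-372-5p had 60 and 165 counts in 2D and 19 and 11 in MCS, and the 3p arm of MIR372 had 37.3 and 21.03 times as many in 2D and 24.4 and 52 times in MCS. The arm miR-373-5p had 26 and 51 counts in 2D and 0 and 2 in MCS. Pooled over the libraries of a culture, miR-373-5p was 35.9 times as abundant in 2D as in MCS (lower bound of the 95% exact interval 9.61, counting error only). Both of these arms were also lower in each MCS library than in each 2D library. The ratio of miR-371b-3p to its antisense partner miR-371a-5p was 8.10 and 9.22 in 2D and 5.69 and 4.92 in MCS.

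In HT29 cells the cluster was near the limit of detection. MiR-371b-3p had 1 and 9 counts in 2D and 0 in both MCS libraries, and miR-372-3p had 2 and 5 counts in 2D and 1 and 0 in MCS. MiR-371a-5p had 2 and 1 counts in 2D and 0 in both MCS libraries, and miR-373-3p had 0 and 1 in 2D and 0 and 2 in MCS. MiR-371a-3p and miR-371b-5p had 0 counts in the 4 HT29 libraries. A total of 0 allows a level of up to 0.0817 CPM over the 2D libraries and 0.107 CPM over the MCS libraries, taking 3 counts as the limit.

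The summed members were 849 times as abundant in DLD1 as in HT29 in 2D (95% exact interval 555 to 1371) and 642 times in MCS (219 to 3113), by counts pooled over the 2 libraries of a group. For miR-371b-3p the ratio in 2D was 1041 (566 to 2171), and in MCS it was at least 261-fold higher in DLD1. For miR-372-3p the ratio was 725 (352 to 1804) in 2D and 751 (134 to 29686) in MCS, the latter resting on 1 count in HT29. For miR-371a-3p it was at least 127-fold higher in DLD1 in 2D and at least 25.6-fold higher in MCS. The intervals cover counting error only, and the difference in kit moves with the cell line, so its part in these ratios was not tested.

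In HT29 the 6 members together had 21 counts in 2D and 3 in MCS, a pooled ratio of 5.33 (95% exact interval 1.59 to 27.9, counting error only). Per library this was 0.476 and 0.610 CPM in 2D and 0.0931 and 0.116 in MCS, so the cultures did not overlap. Of the 4 members with a count in HT29, 2 had both MCS libraries below both 2D libraries after scaling. Of the 1636 miRNAs counted in HT29, 11.9% had that order after scaling. None of the members passed the filter in HT29. In the edgeR quasi-likelihood fit with no filter, miR-371b-3p had a log2 fold change of -5.11 with a standard error of 2.45, an unadjusted p of 0.0372 and an adjusted p of 0.973. That fit called 0.917% of the HT29 miRNAs. A difference of a single member between the HT29 cultures was not detectable by this test at this depth, and the sum of the members was not tested. Whether the responses of the cell lines differ was not tested.

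The other tested miRNAs with AAGUGC at the 5′ end had fold changes close to the median of all miRNAs in DLD1. The motif stood in the first 8 bases of 28 of 2370 human mature miRNAs in the RefSeq table, or 1.18%, and 24 of these are not members. Of the 24, 9 had a count in DLD1 and 5 passed the filter, all of the miR-17 family, which promotes the cell cycle by lowering inhibitors such as CDKN1A. The log2 fold changes, with standard errors from 0.23 to 0.34, were -0.07 for miR-17-5p, 0.04 for miR-106a-5p, 0.30 for miR-93-5p, 0.32 for miR-106b-5p and 0.43 for miR-20a-5p. Their median was 0.30, beside 0.23 for all tested miRNAs. None was called by edgeR's quasi-likelihood test, with adjusted p from 0.147 to 0.934 and 0 of 5 at an unadjusted p under 0.05. DESeq2 and edgeR's exact test also called 0 of 5, while 41.3% of all tested miRNAs, 143 of 346, were called in either direction. That background was 92 miRNAs without replicate 2 of 2D and 30 with all libraries in 1 fit, and the 5 relatives were not called in either case. MiR-17-5p and miR-106a-5p are nearly identical in sequence, so their counts could hold reads of each other.

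**Figure D5:**
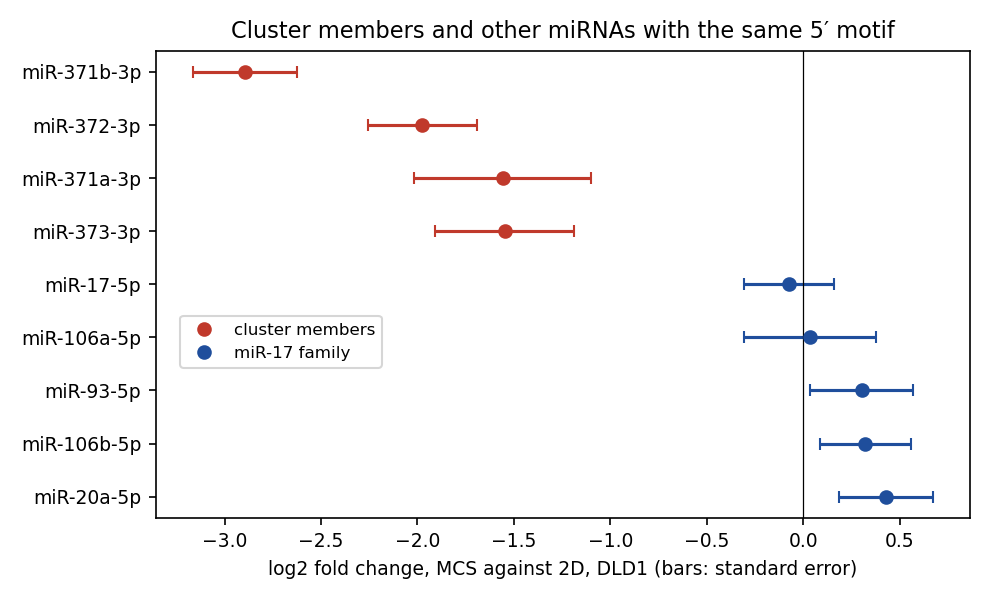
Fitted log2 fold change of MCS against 2D in DLD1, with bars for the standard error, for the 4 members with the motif (red; miR-371a-3p from the fit with no filter) and the 5 tested miRNAs of the miR-17 family (blue). The members lie between -1.55 and -2.89 and the miR-17 family between -0.07 and 0.43.

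By amount, the 4 member arms with the motif were a small part of all miRNAs that carry it. They took 2.05% and 2.41% of the AAGUGC counts in the 2D libraries of DLD1 and 0.322% and 0.368% in the MCS libraries. The relatives summed to 19658 and 19417 CPM in 2D and 20211 and 16684 in MCS. For the exact seed AAGUGCU the picture was the opposite. MiR-372-3p and miR-373-3p held 2600 of 2600 and 3965 of 3974 counts of that seed in 2D and 616 of 616 and 641 of 641 in MCS, and the other 7 entries with the seed held the 9 counts left. In HT29 those 7 entries held more counts than miR-372-3p and miR-373-3p together in every library, with 8 against 2, 64 against 6, 4 against 1 and 22 against 2.

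Clusters known to be active together with miR-371 to miR-373 in pluripotent cells and in placenta were scarce in DLD1. Of the cluster of miR-302 and miR-367, which marks embryonic stem cells, the counts held 2 entries. MiR-302a-3p, miR-302c-3p and miR-367-3p had no entry. MiR-302d-3p had 9 counts in replicate 2 of DLD1 2D and 0 in the other DLD1 libraries, and miR-302b-3p had 0 in all of them. The 44 entries of C19MC, the placental cluster on the same chromosome, summed to 1.52 and 2.47 CPM in 2D and 2.32 and 1.51 in MCS, so that the cultures overlapped. In HT29, where the cluster members stood below 1 CPM, C19MC summed to 6.96 and 29.1 CPM in 2D and 3.35 and 15.1 in MCS. Over the 8 libraries its most abundant entries were miR-512-3p, miR-1323 and miR-498. None of the 44 reached 10 CPM in a library.

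The libraries carried the miRNAs of intestinal epithelium. The 6 marker miRNAs, miR-192-5p, miR-194-5p, miR-215-5p, miR-200c-3p, miR-141-3p and miR-375, were counted in every library. Their summed level was 59273 and 70451 CPM in DLD1 2D and 108622 and 105154 in DLD1 MCS. Most of that sum was miR-200c-3p, with 53618 and 65269 CPM in 2D and 94141 and 92319 in MCS. The marker miR-215-5p had 87.6 and 94.5 CPM in 2D and 78.6 and 66.9 in MCS before scaling. Its fitted log2 fold change, after scaling, was 0.049. Of the blood markers, miR-223-3p had no entry in the counts. In DLD1, miR-150-5p and miR-144-3p had no count and miR-451a stood at 0.885 and 0.314 CPM in 2D and 0.221 and 0.0977 in MCS. In HT29, miR-150-5p stood at 6.29 and 11.3 CPM in 2D and 38.2 and 63.7 in MCS. There miR-451a and miR-144-3p stood at no more than 0.233 and 0.291 CPM. In DLD1, stromal markers, with miR-214-3p at 0 counts and 2 or 3 of the 4 counted in a library, summed to between 4.93 and 10.8 CPM. They were higher in both 2D libraries before scaling with upper quartile factors, but not after it. Both arms of the endothelial miR-126 summed to between 94.6 and 114 CPM in DLD1 and were higher in both MCS libraries. MiR-122-5p, abundant in liver and serum, stood at 0 to 0.880 CPM in DLD1. The part of these in the levels of the cluster was not tested.

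Over the 8 libraries, the miRNAs whose pattern was most like that of the summed members were miR-4326, miR-505-3p, miR-148a-5p, miR-675-5p and miR-425-5p, out of 342 candidates with a mean of at least 10 CPM in DLD1. The root mean square difference of the centred log2 profiles was 1.17 to 1.37 for these 5, against a median of 3.50 over the candidates. All 5 were lower in every HT29 library than in every DLD1 library, an order that their choice by pattern over the 8 libraries favours. MiR-675-5p, which is cut from the H19 RNA, had 615 and 861 counts in DLD1 2D, 193 and 170 in DLD1 MCS, and 1, 0, 0 and 1 in HT29. It was the one of the 5 whose difference between the DLD1 cultures came near that of the cluster, with a log2 fold change of -1.58 (SE 0.35). MiR-4326 had a log2 fold change of -0.64 (SE 0.30), miR-505-3p one of 0.56 (SE 0.25) and miR-148a-5p one of 0.30 (SE 0.27). That of miR-425-5p was -0.0035 (SE 0.28).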

How the data were processed

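Small RNA libraries of DLD1 and HT29 cells in 2D or MCS, 2 per group, were grouped by their labels. The authors trimmed adapters and random bases with Cutadapt, dropped reads under 15 bases or a quality of 25, mapped what was left with Bowtie2 to GRCh37 and then to miRBase, and deposited, for every library, raw counts of reads on each mature miRNA. The submitters' processing notes list CASAVA 1.8.3, cutadapt 1.11, Bowtie2 2.1.0 and edgeR 3.4.2. How reads matching several miRNAs were counted, and whether by strand, is not given in the sources used here. The deposited tables of single libraries and of all libraries were compared over 12572 counts, of which 0 differed. Another 15 entries name no miRNA, hold 2590 counts (0.00988% of 1 HT29 library) and were left out.

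Counts were analysed with edgeR 4.0.16 in R 4.3.3, each cell line alone, with upper quartile factors over its counted miRNAs, a mean of at least 10 CPM and the quasi-likelihood test with no block. A call needed an adjusted p under 0.05 and a fold change of at least 1.5. Normalized CPM use the library total multiplied by its factor as the library size. A single miRNA, with 2 libraries against 2, cannot reach an exact permutation p below 0.3333, so calls rest on the spread edgeR pools over miRNAs. Alternatives were TMM, DESeq2's size factors, library totals, 10 CPM in every library, no filter, DESeq2 1.42.0, edgeR's exact test, all libraries in 1 fit, a replicate block, and leaving out each library. MiRNA sequences came from RefSeq (GRCh38.p14 table), and hairpins were placed by matching them to chromosome 19 of GRCh37. Host transcripts came from GENCODE 44 lifted to GRCh37.

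The members and lists were chosen with earlier results of these data known. Named are the 6 members, the opposite arms miR-372-5p and miR-373-5p, the AAGUGC relatives with a mean of at least 10 CPM in DLD1, the 3 most abundant C19MC miRNAs and any counted miRNA of the cluster of miR-302 and miR-367, the markers of intestinal epithelium, blood, stroma, endothelium, liver and pluripotent cells, and the 5 miRNAs most like the summed members by the root mean square difference of centred log2(normalized CPM + 0.5).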

Additional observations from a re-analysis of the deposited data

How the results depend on the processing

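In DLD1, 143 miRNAs were called, 30 with all libraries in 1 fit, and 92 to 124 with 1 library left out, the lowest without replicate 2 of 2D. In HT29, 0 were called by edgeR's quasi-likelihood test (12 at an unadjusted p under 0.05), 15 with no filter, 11 by DESeq2, 5 by edgeR's exact test and 0 to 2 with 1 library left out (1 without replicate 1 of 2D and 2 without replicate 2 of 2D). The log2 ratio of the summed members was -2.79 with library totals and between -2.69 and -2.38 under the other 6 alternatives. With 1 library left out, the log2 fold change ranged from -3.25 to -2.83 for miR-371b-3p, from -2.64 to -2.00 for miR-371a-5p, from -2.36 to -1.87 for miR-372-3p and from -2.20 to -1.25 for miR-373-3p. Every alternative gave these 4 a lower level in MCS. With 10 CPM required in every library, miR-371a-5p and miR-373-3p were not tested. No AAGUGC relative was called under the 13 alternatives. MiR-371a-3p and miR-371b-5p have a value only with no filter. The cause of these changes was not tested.

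With the replicate number as a block, 139 miRNAs were called in DLD1 and 47 in HT29. The deviations of libraries with the same number correlated with r = 0.338 over 346 miRNAs in DLD1 and 0.788 over 301 in HT29, but with 2 pairs per cell line and no label that ties them the libraries share only a number.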
